A study of Mus musculus with 18 samples.

Results

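Arginine and polyamine metabolism was followed through 10 genes of mouse bone marrow-derived macrophages (BMDMs), namely *Nos2*, *Arg1*, *Arg2*, *Ass1*, *Asl*, *Slc7a2*, *Odc1*, *Srm*, *Sms* and *Sat1*. They were taken by symbol from a table of read counts that lists 16314 gene symbols, and all 10 were among the 12021 genes that passed the filter on low counts. *Nos2* passed it through its level in LPS-treated cells alone. The cells came from *Prep*-/- mice, which lack prolyl endopeptidase in the whole body, and from *Prep*+/- littermates, which keep a single working copy, on the C57BL6/J background. The controls were thus heterozygous, and no group from wild-type mice was compared here. Femoral marrow was grown for 7 days with 50 ng/ml M-CSF, the growth factor that turns marrow precursors into macrophages. M0 cells received nothing further. For 24 h, M1 cells received LPS, a bacterial cell wall component, at 50 ng/ml, and M2 cells received the cytokines IL-4 and IL-13, each at 20 ng/ml. Each of the 6 groups held 3 biological replicates, giving 18 libraries of bulk RNA-seq.

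Macrophages take up arginine and can send it along competing routes. Inducible nitric oxide synthase (*Nos2*) turns arginine into nitric oxide and citrulline, and citrulline is rebuilt into arginine by argininosuccinate synthase (*Ass1*) and argininosuccinate lyase (*Asl*). The arginases (*Arg1* in the cytosol, *Arg2* in mitochondria) instead split arginine into urea and ornithine, from which ornithine decarboxylase (*Odc1*), spermidine synthase (*Srm*) and spermine synthase (*Sms*) build the polyamines, while *Sat1* acetylates polyamines for export or breakdown. In mouse macrophages *Nos2* is a textbook mark of the LPS response and *Arg1* of the response to IL-4 and IL-13, and *Slc7a2* encodes the cationic amino acid transporter CAT2 that serves both.

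Library totals ran from 19068237 to 22598279 counts. Levels are given in CPM (a gene's count relative to its library's total) after scaling the libraries by TMM. *Prep* itself lay between 26.0 and 42.5 CPM in the 9 *Prep*+/- libraries and between 1.48 and 3.22 CPM in the 9 *Prep*-/- libraries, and so followed the labels in each of them. All 7 macrophage markers were detected, and they summed to 9958 to 47592 CPM per library. Their sum was higher in *Prep*-/- M0 (29989 to 47592 CPM) than in *Prep*+/- M0 libraries (18733 to 22167 CPM) and lower in *Prep*-/- M1 (30443 to 36405 CPM) than in *Prep*+/- M1 libraries (44529 to 45873 CPM). Some marker lists of other cells were higher in *Prep*-/- M0 libraries. The 8 granulocyte precursor markers summed to 48.2 to 109 CPM there against 23.9 to 29.7 CPM in *Prep*+/- M0. The 2 T cell markers listed in the table (of 5) summed to 7.84 to 29.6 against 0.750 to 0.962 CPM. Of these 2, 1 was at 0 in all *Prep*-/- M0 libraries though not in all *Prep*+/- M0 libraries, so the higher sum was that of the other marker. The 7 hepatocyte markers, which matter because the liver also makes *Arg1*, *Ass1* and *Asl*, reached 15.4 CPM in 1 *Prep*-/- M0 library and at most 0.868 CPM in the *Prep*+/- M0 libraries, where 5 of the 7 were at 0. In M1 and M2 they summed to at most 0.719 CPM. The 3 B cell markers listed in the table (of 5) summed to 8.66 to 11.5 against 3.01 to 4.79 CPM. Of these 3, 2 were at 0 in all *Prep*-/- M0 libraries though not in all *Prep*+/- M0 libraries, so the higher sum was that of the remaining marker. The dendritic cell list (0.877 to 1.26 against 0.160 to 0.456 CPM) was also higher in *Prep*-/- M0. In M1 the *Prep*-/- libraries were lower in the granulocyte precursor list (36.7 to 49.6 against 59.7 to 104 CPM) and the stromal and endothelial list (3.41 to 17.3 against 20.5 to 22.1 CPM) and higher in the T cell list (2.27 to 3.27 against 0.675 to 1.35 CPM) and the B cell list (5.09 to 6.96 against 2.06 to 2.59 CPM). In M2 they were higher in the macrophage list (13817 to 19505 against 9958 to 12160 CPM), the T cell list (1.55 to 2.46 against 0.170 to 0.461 CPM) and the granulocyte precursor list (19.2 to 30.4 against 16.3 to 18.5 CPM). In each genotype in M1, 1 of the 2 T cell markers and 1 of the 3 B cell markers stood at 0 in all libraries. In M2, 1 of the 2 T cell markers was at 0 in all *Prep*+/- libraries. The erythroid list reached at most 0.138 CPM and the mast cell and basophil list 0.0802 CPM. The part of these cells in the results of the 3 states was not tested. In bulk RNA, fewer cells that express a gene and less RNA of it per cell cannot be told apart.

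The 10 genes differed widely in level once CPM was divided by the length of the canonical transcript in kilobases. In *Prep*+/- M0 cells *Sat1* led with 312 ± 73.6 CPM per kb (SD, n = 3) and *Odc1* followed with 30.1 ± 5.78. *Srm* (18.6 ± 4.60), *Asl* (18.6 ± 1.69) and *Sms* (17.4 ± 0.906) did not differ beyond their spread, and *Ass1* came next with 11.7 ± 1.82. *Arg1* (1.40 ± 0.242), *Slc7a2* (0.478 ± 0.0205), *Arg2* (0.177 ± 0.130) and *Nos2* (0.0130 ± 0.0142) closed the order. Among these 10 genes, resting *Prep*+/- cells thus held the transcripts of polyamine synthesis and arginine recycling well above those of *Slc7a2*, the arginases and *Nos2*. *Slc7a1*, an arginine transporter outside the 10, was at 33.3 CPM in the same cells. This value is not divided by transcript length, and in the same unit *Slc7a2* was at 3.79 CPM.

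Stimulation changed this order. In *Prep*+/- M2 cells *Arg1* rose to the top with 1325 ± 98.3 CPM per kb, above *Sat1* with 695 ± 105. In *Prep*+/- M1 cells *Sat1* (195 ± 19.0), *Ass1* (133 ± 8.85) and *Arg1* (84.1 ± 10.9) led, and *Nos2* was ninth of 10 with 7.49 ± 1.88. In *Prep*-/- M1 cells *Nos2* stood behind *Sat1* and *Ass1* with 51.6 ± 33.9, a level whose spread reached that of *Ass1* above it (66.7 ± 3.94) and of *Asl* below it (23.0 ± 0.768), and *Arg1* fell behind it with 19.5 ± 5.77. In *Prep*-/- M2 cells *Sat1* (1127 ± 448) and *Arg1* (269 ± 54.3) led, and the 6 genes from *Asl* (25.0 ± 1.33) to *Ass1* (16.7 ± 7.75) could not be ordered beyond their spread.

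**Figure D1:**
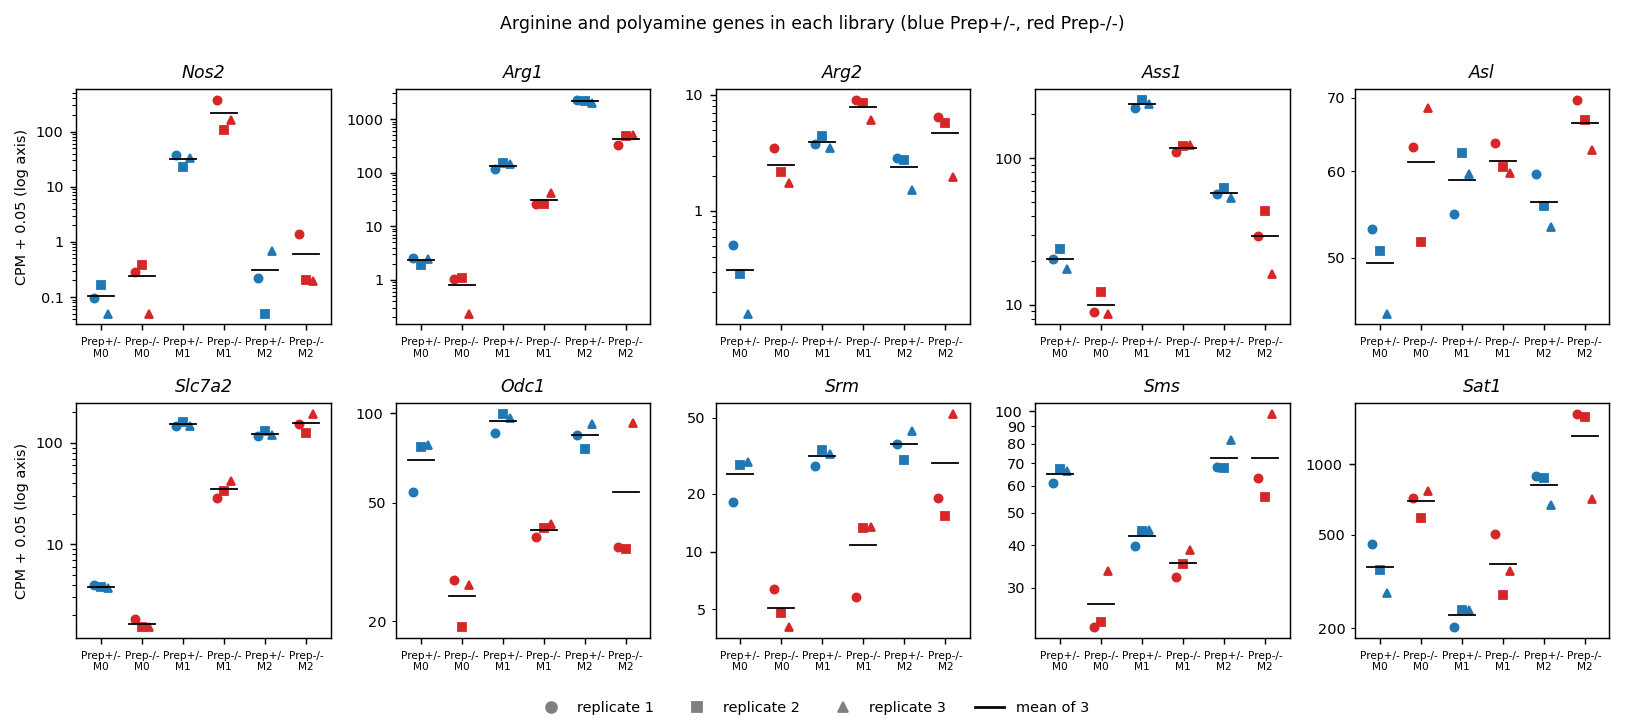
Level of each of the 10 genes in every library, in CPM plus 0.05 on log axes, with *Prep*+/- in blue, *Prep*-/- in red, 1 symbol per replicate number and a line at the mean of 3. *Arg1* climbs from M0 to M1 to M2 in both genotypes with the red points below the blue, *Nos2* is high in M1 alone, and *Prep*-/- M2 replicate 3 (triangle) stands apart in *Odc1*, *Srm*, *Sms* and *Sat1*.

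Comparisons used edgeR's quasi-likelihood test over all 12021 genes, and a gene was called when its Benjamini-Hochberg adjusted p was under 0.05 and its fold change over 1.5. In *Prep*+/- BMDMs, M1 against M0 called 7 of the 10 genes, where 37.7% of all genes were called. Of these 7, 5 were higher (16.7% of all genes) and 2 lower (20.9%). M2 against M0 called 5, all higher, where 12.9% of all genes were called (6.09% higher, 6.77% lower). In *Prep*-/- BMDMs the counts were 8 in M1, where 42.0% of all genes were called, with 7 higher (20.9% of all genes) and 1 lower (21.0%), and 7 in M2, all higher, where 30.2% were called (14.7% higher, 15.5% lower).

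For the knockout itself, 8 genes were called in M0, 2 higher and 6 lower, where 32.6% of all genes were called (15.4% higher, 17.2% lower). In M1 7 were called, 2 higher and 5 lower, where 22.5% of all genes were called (12.3% higher, 10.2% lower). In M2 2 were called, both lower, where 16.2% of all genes were called (6.37% higher, 9.82% lower). The libraries of both genotypes did not overlap in 8 of the 10 genes in M0, 9 in M1 and 3 in M2, where this held for 52.6%, 56.9% and 42.1% of all genes. The test of whether the knockout effect differed between states called 3 genes for M1 against M0, where 24.6% of all genes passed, and 3 for M2 against M0, where 9.64% passed. For the knockout, the median log2 fold change of the 10 genes was -1.16, -0.64 and 0.12 in the 3 states in turn, beside 0.02, 0.04 and 0.03 over all genes tested. The 7 comparisons share groups with one another, so their calls are not independent.

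**Figure D2:**
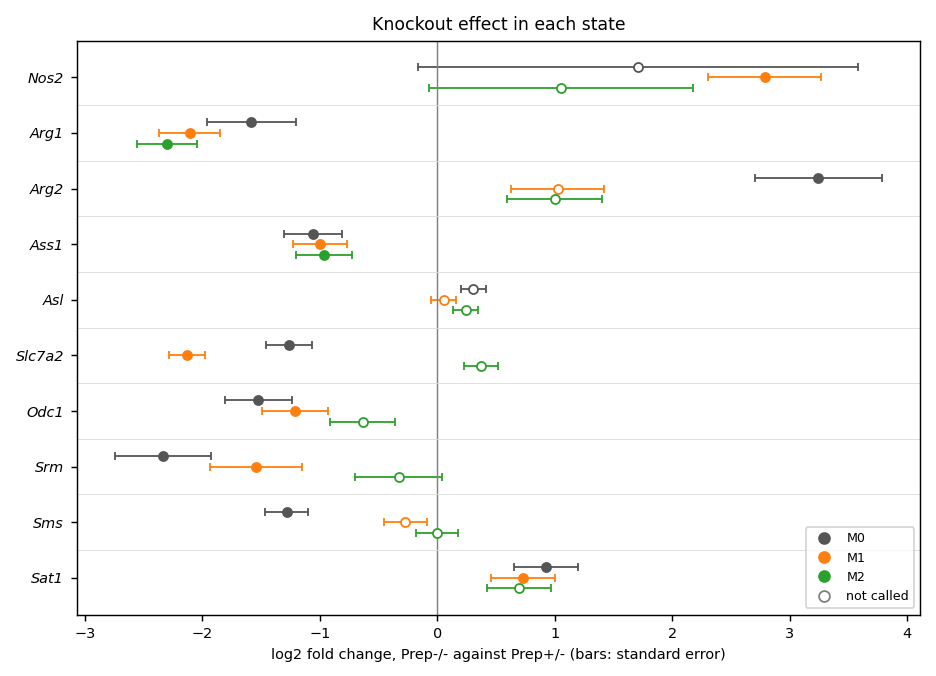
Log2 fold change of *Prep*-/- against *Prep*+/- for the 10 genes in M0 (grey), M1 (orange) and M2 (green), with bars for the standard error and open circles where a gene was not called. *Arg1* and *Ass1* lie below 0 and called in all 3 states, and *Nos2* is called in M1 alone, at 2.79.

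*Nos2* was nearly silent without LPS. Its raw counts were 1, 3 and 0 in *Prep*+/- M0, 5, 8 and 0 in *Prep*-/- M0, 4, 0 and 14 in *Prep*+/- M2, and 27, 3 and 3 in *Prep*-/- M2. After LPS it reached 38.1, 22.7 and 33.3 CPM in the *Prep*+/- libraries and 378, 109 and 163 CPM in the *Prep*-/- libraries. Every *Prep*-/- M1 library was above every *Prep*+/- M1 library, and replicate 1 was the highest by a wide margin. The knockout raised *Nos2* in M1 by 2.79 ± 0.48 on the log2 scale (SE), or 6.90-fold, with an edgeR adjusted p of 0.000533. Without *Prep*-/- M1 replicate 1 the value was 2.10 with an edgeR adjusted p of 0.00509. In M0 and in M2 its knockout values were 1.71 ± 1.87 and 1.06 ± 1.12 (edgeR adjusted p of 0.473 and 0.533). In summed counts the ratio of *Prep*-/- to *Prep*+/- was 3.52 in M0 (exact 95% interval 1.09 to 14.8) and 2.10 in M2 (1.15 to 3.97). These intervals lie above 1 and cover counting error only, while the libraries of both genotypes overlapped in either state.

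Because *Nos2* had so few reads in M0, its rise with LPS is given as a ratio of summed counts. The ratio of M1 to M0 was 568 in *Prep*+/- cells, with a 95% interval of 221 to 2086, and 1103 in *Prep*-/- cells, with an interval of 645 to 2071. These intervals are exact, cover counting error only and overlap. The knockout effect in M1 minus that in M0 was 1.08 ± 2.56 on the log2 scale (edgeR adjusted p = 0.783). *Nos2* lies on the forward strand at chr11:78811613-78851080 of GRCm39, where the GENCODE annotation has a long noncoding RNA, *Gm71838*, on the opposite strand. Whether the authors counted by strand is not given in the sources used here, so reads of such opposite-strand partners cannot be told apart. Among 9600 genes with a mean of at least 5 CPM, those whose log2 CPM followed *Nos2* most closely over the 18 libraries were *Fam114a1* (Pearson's r = 0.975), *Acod1* (0.970), which encodes the itaconate-producing enzyme of activated macrophages, *C1ra* (0.970), *Slfn4* (0.969) and *Cflar* (0.968). The points share libraries and groups, and the r values are descriptions.

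*Arg1* (chr10:24791118-24803817, reverse strand, with the noncoding *Gm36172* opposite) answered both stimuli and was lower in *Prep*-/- cells in every state. In M0 it was at 2.55, 1.82 and 2.40 CPM in *Prep*+/- and at 0.996, 1.05 and 0.185 CPM in *Prep*-/- libraries. In M1 it was at 116, 148 and 143 CPM against 26.1, 26.0 and 42.2 CPM, and in M2 at 2288, 2142 and 1972 CPM against 334, 473 and 495 CPM. The genotypes did not overlap in any state. The knockout lowered *Arg1* with log2 fold changes of -1.58 ± 0.38 in M0, -2.11 ± 0.26 in M1 and -2.30 ± 0.26 in M2 (edgeR adjusted p of 0.00276, 5.56e-05 and 1.79e-05). With a replicate block in a fit restricted to M0 the call there was lost at a larger fold (-1.70, edgeR adjusted p = 0.0566). The knockout effect did not differ detectably between states, at -0.53 ± 0.48 for M1 minus M0 and -0.72 ± 0.47 for M2 minus M0 (edgeR adjusted p of 0.440 and 0.36).

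Both stimuli still raised *Arg1* in the absence of *Prep*. IL-4 and IL-13 raised it by 9.89 ± 0.37 on the log2 scale in *Prep*+/- and by 9.17 ± 0.38 in *Prep*-/- cells (edgeR adjusted p of 1.40e-11 and 4.69e-11). LPS raised it by 5.91 ± 0.32 and 5.38 ± 0.35 (edgeR adjusted p of 5.81e-10 and 3.31e-09). The genes that followed *Arg1* most closely over the 18 libraries were *Pdia4* (r = 0.951), a disulfide isomerase of the endoplasmic reticulum, *Tarbp2* (0.941), *Slc7a2* (0.938), *Get3* (0.923) and *Rars* (0.919), the arginyl-tRNA synthetase.

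*Arg2*, the mitochondrial arginase, moved the other way in M0. It was at 0.456, 0.237 and 0.0802 CPM in *Prep*+/- M0 and at 3.46, 2.13 and 1.71 CPM in *Prep*-/- M0 libraries, with no overlap. Its knockout value in M0 was 3.24 ± 0.54 on the log2 scale (edgeR adjusted p = 0.000156), and 3.89 without *Prep*+/- M0 replicate 1. In M1 it was at 3.71, 4.38 and 3.45 against 9.04, 8.42 and 6.05 CPM, and in M2 at 2.81, 2.68 and 1.47 against 6.44, 5.65 and 1.92 CPM. The M1 groups did not overlap, whereas the M2 groups did through *Prep*-/- replicate 3. The knockout values of 1.02 ± 0.39 in M1 and 1.0 ± 0.41 in M2 missed the threshold (edgeR adjusted p of 0.0522 and 0.0832). The effect in M1 differed from that in M0 by -2.22 ± 0.68 (edgeR adjusted p = 0.0260), a difference lost on leaving out any of 5 libraries (-1.79 to -2.17). Its effect in M2 differed from that in M0 by much the same value, -2.24 ± 0.69, which fell just outside the threshold (edgeR adjusted p = 0.05004) and passed under 10 of 19 alternatives, among them DESeq2 (adjusted p = 0.0105) and a replicate block (edgeR adjusted p = 0.00865 over all 18 libraries and 0.0211 over the libraries compared). The M1 value passed under 4 of 14 alternatives, among them DESeq2 (adjusted p = 0.0415), and the M2 value passed without *Prep*-/- M2 replicate 3 (1.39, edgeR adjusted p = 0.00441). LPS raised *Arg2* by 3.91 ± 0.53 in *Prep*+/- and by 1.69 ± 0.40 in *Prep*-/- cells on the log2 scale (edgeR adjusted p of 1.17e-05 and 0.00194). IL-4 and IL-13 raised it by 3.18 ± 0.54 in *Prep*+/- cells (edgeR adjusted p = 0.000477), and the *Prep*-/- value of 0.94 ± 0.41 did not pass (edgeR adjusted p = 0.0715). That value passed without *Prep*-/- M2 replicate 3 (1.31, edgeR adjusted p = 0.00521), without *Prep*-/- M0 replicate 1 (1.27, edgeR adjusted p = 0.0363) and with a replicate block over all 18 libraries (0.88, edgeR adjusted p = 0.0190). *Arg2* (chr12:79177524-79203075, forward strand) overlaps *Vti1b* on the opposite strand and shares 479 bases of transcript with it.

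*Slc7a2*, which brings arginine into the cell, had a knockout effect that differed between the states. It was at 3.97, 3.75 and 3.65 CPM in *Prep*+/- M0 and at 1.80, 1.46 and 1.48 CPM in *Prep*-/- M0. After LPS it was at 147, 162 and 149 CPM against 28.9, 33.8 and 41.9 CPM. Both states separated the genotypes, with the *Prep*-/- libraries below. After IL-4 and IL-13 the order was lost, with 117, 130 and 119 CPM in *Prep*+/- and 154, 124 and 195 CPM in *Prep*-/- libraries. The knockout lowered *Slc7a2* by log2 values of -1.26 ± 0.20 in M0 and -2.13 ± 0.15 in M1 (edgeR adjusted p of 8.32e-05 and 2.96e-07) and gave 0.37 ± 0.14 in M2 (edgeR adjusted p = 0.0701). Its effect in M2 differed from that in M0 by 1.63 ± 0.24 (edgeR adjusted p = 0.00105), a difference called under all 19 alternatives. Its effect in M1 differed from that in M0 by -0.87 ± 0.25 (edgeR adjusted p = 0.0183), and this call was lost without *Prep*-/- M0 replicate 1 (-0.77, edgeR adjusted p = 0.0588).

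Induction of *Slc7a2* was strong in both genotypes. LPS raised it by 5.33 ± 0.18 on the log2 scale in *Prep*+/- and by 4.46 ± 0.19 in *Prep*-/- cells, and IL-4 and IL-13 raised it by 5.01 ± 0.18 and 6.64 ± 0.20, all with edgeR adjusted p of 3.46e-11 or less. *Slc7a2* spans chr8:41315431-41375345 on the forward strand.

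*Ass1* and *Asl*, the recycling pair, did not move together. *Ass1* was at 20.6, 23.8 and 17.4 CPM in *Prep*+/- M0 and at 8.87, 12.1 and 8.63 CPM in *Prep*-/- M0. LPS took it to 219, 250 and 234 CPM against 110, 121 and 122 CPM, and IL-4 and IL-13 to 57.2, 62.1 and 53.2 CPM against 29.1, 43.3 and 16.0 CPM. In all 3 states every *Prep*-/- library lay below every *Prep*+/- library. The knockout lowered *Ass1* by close to the same log2 value throughout, at -1.05 ± 0.25 in M0, -0.997 ± 0.23 in M1 and -0.96 ± 0.24 in M2 (edgeR adjusted p of 0.00226, 0.00402 and 0.00695). On leaving out 1 library the M2 value spanned -1.34 to -0.66, so it was the least settled. The differences between states were 0.06 ± 0.33 and 0.09 ± 0.34 (edgeR adjusted p of 0.916 and 0.900). A fit restricted to the M2 libraries did not keep the M2 call at the same fold (-0.96, edgeR adjusted p = 0.0698), and the stricter glmTreat test against a 1.5-fold change lost the call in M0, M1 and M2 (edgeR adjusted p of 0.0590, 0.140 and 0.195). LPS raised *Ass1* by 3.51 ± 0.26 and 3.57 ± 0.26 on the log2 scale in *Prep*+/- and *Prep*-/- cells (edgeR adjusted p of 1.23e-08 and 1.32e-08), and IL-4 and IL-13 by 1.48 ± 0.24 and 1.57 ± 0.25 (edgeR adjusted p of 0.000290 and 9.07e-05).

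*Asl* was the steadiest of the 10 genes, with 44.4 to 69.7 CPM over all 18 libraries, and was called in none of the 7 comparisons of groups. Its knockout value in M0, 0.31 ± 0.11 on the log2 scale, passed the adjusted p (0.0249 by edgeR) and not the fold change, at 1.24-fold. *Ass1* lies at chr2:31352181-31410862 on the forward strand and has a processed pseudogene, *Gm5424*, that matches 1258 bases at 98.1% identity and is not in the count table. *Asl* lies at chr5:130040099-130058088 on the reverse strand, with the noncoding *Gm73169* opposite.

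**Figure D3:**
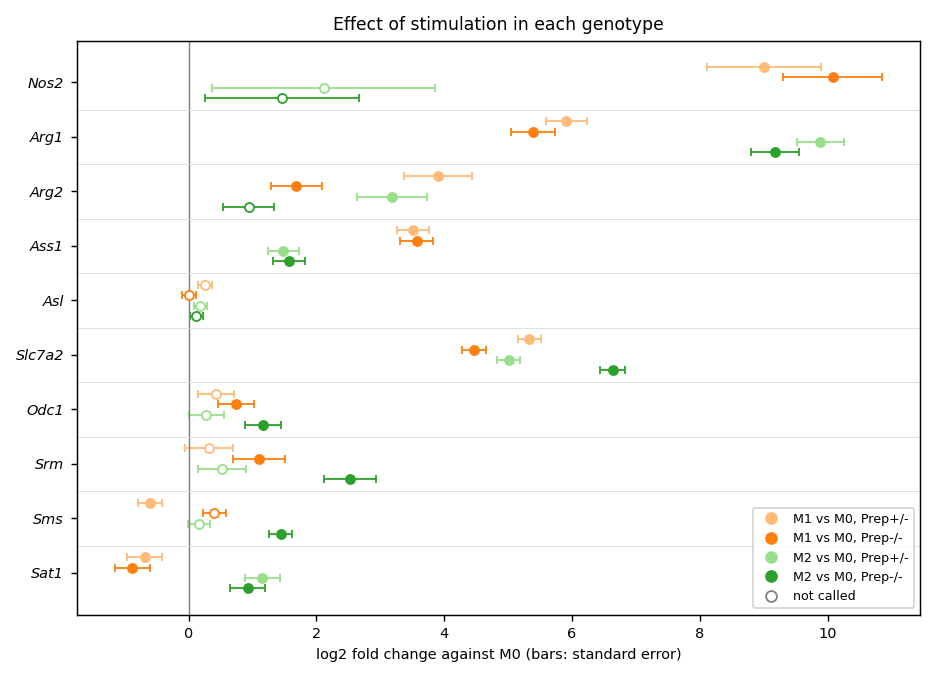
Log2 fold change against M0 in the same genotype, for M1 (orange) and M2 (green), with *Prep*+/- in the light and *Prep*-/- in the dark shade, bars for the standard error and open circles where a gene was not called. *Arg1* and *Slc7a2* sit far to the right for both stimuli, *Nos2* for M1 alone, *Asl* near 0, and *Odc1*, *Srm* and *Sms* are called for M2 in *Prep*-/- and not in *Prep*+/- cells.

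The polyamine synthesis genes *Odc1*, *Srm* and *Sms* were lower in *Prep*-/- M0 cells. *Odc1*, the entry enzyme, was at 54.2, 76.8 and 78.0 CPM in *Prep*+/- and at 27.4, 19.0 and 26.3 CPM in *Prep*-/- M0 libraries. *Srm* was at 18.1, 28.3 and 29.4 against 6.36, 4.73 and 3.97 CPM, and *Sms* at 61.1, 67.5 and 66.3 against 22.8, 23.6 and 33.6 CPM. None of the 3 overlapped between genotypes. Their knockout values were -1.52 ± 0.28 for *Odc1*, -2.33 ± 0.41 for *Srm* and -1.28 ± 0.18 for *Sms* on the log2 scale (edgeR adjusted p of 0.000379, 0.000227 and 3.92e-05). *Prep*-/- M0 replicate 3 stood further from replicates 1 and 2 (chi-square per degree of freedom of 107 and 114 over all genes) than these did from each other (33.7), and without it the same 8 genes were called in M0.

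In M1 the first 2 steps of the route stayed lower and the last did not pass the test. *Odc1* was at 85.7, 99.7 and 96.1 CPM in *Prep*+/- and at 38.4, 41.2 and 42.2 CPM in *Prep*-/- libraries, and *Srm* was at 28.1, 34.0 and 32.3 against 5.77, 13.2 and 13.4 CPM. The genotypes did not overlap, and the knockout values were -1.21 ± 0.28 and -1.54 ± 0.39 (edgeR adjusted p of 0.00387 and 0.00655). The stricter glmTreat test against a 1.5-fold change lost both calls (edgeR adjusted p of 0.0764 and 0.0642). *Sms*, at 39.8, 44.0 and 44.4 against 32.2, 35.1 and 38.7 CPM, had a knockout value of -0.27 ± 0.18 (edgeR adjusted p = 0.249). Its effect in M1 differed from that in M0 by 1.01 ± 0.26 (edgeR adjusted p = 0.00987), and this held under all 19 alternatives. LPS lowered *Sms* in *Prep*+/- cells by a log2 value of -0.60 ± 0.18 (edgeR adjusted p = 0.0100), a fold change of 1.52 that fell under 1.5 without any of *Prep*+/- M0 replicate 2 (-0.57), M0 replicate 3 (-0.58) or M1 replicate 1 (-0.58). In *Prep*-/- cells LPS gave *Odc1* a rise of 0.74 ± 0.28 and *Srm* a rise of 1.10 ± 0.41 (edgeR adjusted p of 0.0327 and 0.0301). The *Odc1* call was lost on leaving out any of 5 of the 6 libraries, all but *Prep*-/- M0 replicate 1 (0.55 to 0.78), and the *Srm* call on leaving out any of 4, replicates 2 and 3 of either state (0.88 to 1.02).

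In M2 the polyamine genes turned on a single library. *Odc1* was at 84.7, 76.0 and 92.1 CPM in *Prep*+/- M2 and at 35.5, 35.0 and 92.4 CPM in *Prep*-/- M2, where replicate 3 was the last value. *Srm* was at 36.5, 30.0 and 42.5 against 18.9, 15.3 and 52.5 CPM, and *Sms* at 68.1, 67.9 and 82.1 against 63.3, 55.6 and 98.2 CPM. Replicates 1 and 2 of *Prep*-/- M2 lay below every *Prep*+/- M2 library in all 3 genes, and replicate 3 lay above all of them. Over the 3 replicates the knockout values were -0.63 ± 0.28 for *Odc1*, -0.33 ± 0.37 for *Srm* and -0.01 ± 0.18 for *Sms* (edgeR adjusted p of 0.106, 0.560 and 0.989). Without *Prep*-/- M2 replicate 3 they were -1.24 for *Odc1* and -1.07 for *Srm* (edgeR adjusted p of 5.08e-05 and 0.00986) and -0.28 for *Sms* (edgeR adjusted p = 0.189), and the number of the 10 genes called rose from 2 to 6. *Prep* itself was at 2.88 CPM in this library against 3.22 and 2.40 CPM in the other *Prep*-/- M2 libraries, so it carried the genotype of its label. Replicate numbers were taken to pair the M2 libraries of both genotypes from correlations of their deviations (0.249, 0.255 and 0.462). This pairing is an assumption, since no label ties a number to an animal or day and differently numbered libraries were not correlated. With a replicate block 4 genes were called in M2. These were *Arg1*, *Ass1*, *Arg2* (0.94, edgeR adjusted p = 0.0219) and *Odc1* (-0.71, edgeR adjusted p = 0.0474) in the fit of all 18 libraries, and *Arg1*, *Ass1*, *Arg2* (0.92, edgeR adjusted p = 0.0380) and *Sat1* (0.61, edgeR adjusted p = 0.0459) in the fit of the M2 libraries, where *Odc1* was not called (-0.78, edgeR adjusted p = 0.0601).

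IL-4 and IL-13 raised the 3 synthesis genes in *Prep*-/- cells, by 1.16 ± 0.28 for *Odc1*, 2.53 ± 0.41 for *Srm* and 1.44 ± 0.18 for *Sms* on the log2 scale (edgeR adjusted p of 0.00318, 0.000118 and 1.08e-05). Without *Prep*-/- M2 replicate 3 these became 0.53, 1.76 and 1.14, and *Odc1* was no longer called. In *Prep*+/- cells none passed, at 0.27 ± 0.27, 0.52 ± 0.37 and 0.16 ± 0.18 (edgeR adjusted p of 0.540, 0.371 and 0.581). The knockout effect in M2 minus that in M0 was 0.89 ± 0.39 for *Odc1* (edgeR adjusted p = 0.163, called under 0 of 19 alternatives), 1.28 ± 0.26 for *Sms* (edgeR adjusted p = 0.00670, called under all 19) and 2.01 ± 0.55 for *Srm* (edgeR adjusted p = 0.0307, called under 11 of 19). For *Srm* it was 1.26 without *Prep*-/- M2 replicate 3 (edgeR adjusted p = 0.0618).

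*Sat1*, whose product tags polyamines for export, was the mirror of the synthesis genes in M0. It was at 456, 356 and 284 CPM in *Prep*+/- and at 721, 589 and 772 CPM in *Prep*-/- M0 libraries, at 202, 240 and 241 against 505, 277 and 352 CPM in M1, and at 894, 873 and 671 against 1644, 1596 and 713 CPM in M2. The genotypes overlapped in M2 alone, through *Prep*-/- replicate 3. The knockout values were 0.93 ± 0.27, 0.73 ± 0.27 and 0.70 ± 0.27 on the log2 scale in M0, M1 and M2 (edgeR adjusted p of 0.0104, 0.0458 and 0.0727). The M0 call was lost without *Prep*+/- M0 replicate 3 (0.76, edgeR adjusted p = 0.0585), that in M1 was lost under 7 of 14 alternatives, 5 of which left out 1 library (*Prep*+/- replicate 1, 2 or 3 or *Prep*-/- replicate 1 or 3, with 0.45 to 0.77), and the M2 value passed without *Prep*-/- M2 replicate 3 (1.01, edgeR adjusted p = 0.00272) and with DESeq2 (0.71, adjusted p = 0.0399).

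IL-4 and IL-13 raised *Sat1* by 1.15 ± 0.27 in *Prep*+/- and 0.92 ± 0.27 in *Prep*-/- cells on the log2 scale (edgeR adjusted p of 0.00671 and 0.0115). LPS lowered it, at -0.68 ± 0.27 and -0.88 ± 0.27 (edgeR adjusted p of 0.0451 and 0.0115). Of these, the *Prep*+/- M1 call was lost on leaving out any library but *Prep*+/- M0 replicate 3 (-0.52 to -0.76), the *Prep*-/- M1 call without *Prep*-/- M1 replicate 2 (-0.74), and the *Prep*-/- M2 call without *Prep*-/- M0 replicate 2 or M2 replicate 1 or 2 (0.70 to 0.80). Over the 18 libraries, deviations from the group means ran together for *Odc1* and *Srm* (r = 0.82) and against each other for *Srm* and *Sat1* (r = -0.86). These r values include the library that stood apart and share libraries, so they are descriptions.

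RefSeq promoter windows (250 bases before a start site, from the GRCm38.p6 annotation and placed on GRCm39 by exact match) were found for 4 of the 10 genes, *Ass1*, *Odc1*, *Sms* and *Sat1*. Those of *Sms* and *Sat1* are shown, since both genes lie on the X chromosome (chrX:156226848-156275317 and chrX:153996128-153999452, both on the reverse strand) and moved in opposite directions in *Prep*-/- M0 cells. Only bases before the first annotated exon are printed, read 5′ to 3′ on the strand of the gene, from chrX:156275318-156275533 (216 bases) and chrX:153999453-153999695 (243 bases) of GRCm39. Capitals mark CACGTG, the E-box bound by Myc-type factors.
Sms: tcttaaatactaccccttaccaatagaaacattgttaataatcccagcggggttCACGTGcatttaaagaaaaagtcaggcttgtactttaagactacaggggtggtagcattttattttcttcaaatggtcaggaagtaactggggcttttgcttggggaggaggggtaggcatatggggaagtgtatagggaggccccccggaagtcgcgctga
Sat1: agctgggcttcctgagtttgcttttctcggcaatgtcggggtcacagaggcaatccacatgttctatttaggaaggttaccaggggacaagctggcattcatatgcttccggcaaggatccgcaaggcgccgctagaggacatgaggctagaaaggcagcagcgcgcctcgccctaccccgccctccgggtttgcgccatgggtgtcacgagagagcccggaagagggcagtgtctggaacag
The whole windows were searched on both strands for 6 motifs. CACGTG was found in *Sms*, 196 bases before the RefSeq start, and in *Ass1*, 36 bases before it. Of the 32851 RefSeq windows of this length, 6.02% held it. No match was found in the 4 genes for the other 5, which were TATAAA for the TATA box (held by 12.4% of all windows), GGANTTTCC for NF-kappaB (1.07%), TTGCNNAA for C/EBP (9.56%), GAGGAA for PU.1 (23.3%) and GAAANNGAA for the interferon-stimulated response element (7.13%). The *Ass1* match lay past the start of an annotated *Ass1* exon, since only the first 122 bases of its window come before one. A match is a description of letters and no measure of binding. The *Ass1* and *Odc1* windows were rich in G and C (75.6% and 80.0%) as was a second *Sms* window that held no CACGTG (75.2%), beside 59.6% in *Sat1*, 47.2% in the *Sms* window shown and a median of 52.4% over all windows.

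*Odc1* (chr12:17594383-17601507), *Srm* (chr4:148675940-148681792), *Sms* and *Sat1* have processed pseudogenes or related transcripts of at least 90% identity over 400 bases or more. Of these, *AW146154* and *Banp* are in the count table and match *Odc1*, over 1221 bases at 92.3% and over 478 bases at 96.4%. *Sms-ps* matches *Sms* over 1101 bases with no mismatch and is not in the table. How the authors treated reads that fit several places is not given in the sources used here, so the levels of these genes are uncertain to that extent. *Sat1* also overlaps a protein-coding gene without a symbol on the same strand. *Odc1* overlaps the snoRNA *Gm22748* on the same strand and the noncoding *Gm59592* on the opposite strand. Reads shared with these genes add to that uncertainty.

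Ratios within a library placed the competing routes beside each other. The ratio of *Nos2* to *Arg1* in M1, per kilobase of transcript, was 0.127, 0.0588 and 0.0898 in *Prep*+/- and 5.55, 1.61 and 1.48 in *Prep*-/- libraries. *Arg1* transcripts thus exceeded those of *Nos2* in every *Prep*+/- M1 library and fell below them in every *Prep*-/- M1 library. The mean log2 ratio differed by 4.76. The ratio of *Arg1* to *Arg2* in M0 was 5.06, 6.92 and 27.1 in *Prep*+/- and 0.260, 0.443 and 0.0976 in *Prep*-/- libraries. *Arg2* was thus the more abundant arginase transcript in each *Prep*-/- M0 library, at low counts. *Arg2* had 10, 6 and 2 reads in *Prep*+/- M0, and *Arg1* had 21, 25 and 4 reads in *Prep*-/- M0, so these M0 ratios are imprecise. In M2 the ratio of *Arg1* to *Arg2* was 735, 721 and 1210 against 46.8, 75.6 and 233.

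The ratio of *Ass1* to *Asl* in M1 was 6.04, 6.06 and 5.93 in *Prep*+/- and 2.60, 3.01 and 3.09 in *Prep*-/- libraries. The ratio of *Odc1* to *Sat1* in M0 was 0.0602, 0.109 and 0.139 against 0.0192, 0.0163 and 0.0172. In M2 it was 0.0479, 0.0439 and 0.0693 against 0.0109, 0.0111 and 0.0655, the last from *Prep*-/- M2 replicate 3. A two-sided exact permutation test of 3 against 3 cannot go below p = 0.1. The exact permutation test gave that smallest value for 9 of the 10 combinations of ratio and state tested and p = 0.3 for *Odc1* to *Sat1* in M2.

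**Figure D4:**
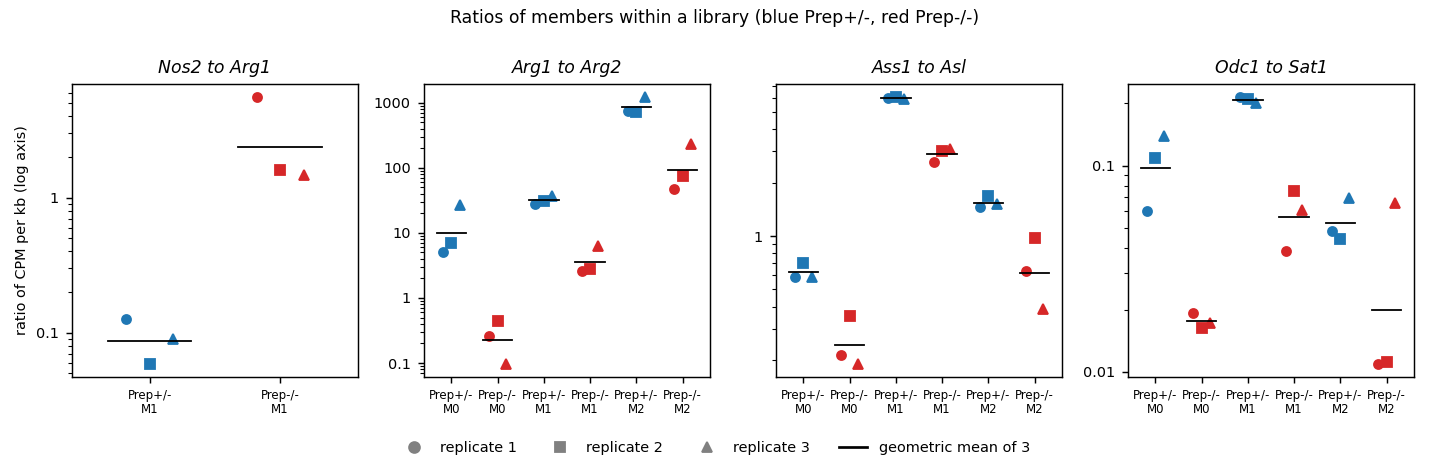
Ratio of CPM per kb between 2 genes in each library on log axes, with *Prep*+/- in blue, *Prep*-/- in red, 1 symbol per replicate number and a line at the geometric mean of 3. *Nos2* to *Arg1* is shown for M1 alone, since *Nos2* had few or no reads elsewhere, and lies below 1 in blue and above 1 in red.

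Other genes of the pathway were followed in 7 lists of 52 genes, of which 44 were tested. The knockout in M0 left 4 of the 44 higher and 16 lower, with a median log2 fold change of -0.33, where 15.4% of all genes were higher and 17.2% lower. Of 7 amino acid transport genes 5 were lower, among them the arginine transporter *Slc7a1* (2.83 ± 0.143 against 33.3 ± 9.84 CPM, SD, n = 3, log2 fold change -3.56 ± 0.53) and *Slc7a5* (-3.47 ± 0.42), the light chain of the large neutral amino acid transporter. Of 6 genes in the list of polyamine regulators and the methionine arm, 4 were lower, namely *Amd1*, *Azin1*, *Mat2a* and *Mtap*, and *Oaz2*, an ornithine decarboxylase antizyme, was higher. Of 8 ornithine, urea cycle and proline genes 4 were lower (*Oat*, *Aldh18a1*, *Pycr1* and *P4ha1*). The lysosomal polyamine exporter *Atp13a2* was higher, at 564 ± 131 against 244 ± 20.7 CPM (1.21 ± 0.17), as was *Pts*, an enzyme of tetrahydrobiopterin synthesis (0.99 ± 0.16). The largest edgeR adjusted p among these 4 named genes with values was 0.000155.

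In M1 the knockout left 3 of 44 higher and 7 lower, close to the 22.5% of all genes called there, and none of the 7 transport genes was called. *Ddah2*, which breaks down inhibitors of nitric oxide synthase, was higher (1.24 ± 0.29, edgeR adjusted p = 0.00384), as was the polyamine oxidase *Paox* (0.86 ± 0.25, edgeR adjusted p = 0.0155), a call lost without *Prep*+/- M1 replicate 2 (0.79) or *Prep*-/- M1 replicate 1 (0.84). *Mat2a*, which makes S-adenosylmethionine, was lower (-1.14 ± 0.22, edgeR adjusted p = 0.00129), as was *Mtap* (-0.9995 ± 0.30, edgeR adjusted p = 0.0160), a call lost without *Prep*-/- M1 replicate 1 (-0.84). In M2 the knockout left 1 higher and 12 lower, where 6.37% of all genes were higher and 9.82% lower. *Atp13a2* was higher (0.82 ± 0.17), and the neutral amino acid transporter *Slc7a8* was lower (-2.57 ± 0.24), with edgeR adjusted p of 0.00246 and 5.27e-06.

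In *Prep*+/- cells LPS left 7 of the 44 genes higher and 12 lower, and IL-4 and IL-13 left 3 higher and 2 lower, where 37.7% and 12.9% of all genes were called. *Gch1*, which sets the supply of the nitric oxide synthase cofactor tetrahydrobiopterin, rose with LPS from 18.4 ± 1.12 to 110 ± 10.9 CPM (SD, n = 3, 2.58 ± 0.14 on the log2 scale), as did the transporter *Slc7a7* (1.93 ± 0.16), while *Gatm*, the first enzyme of creatine synthesis, fell (-2.23 ± 0.15), as did *Slc7a5* (-1.68 ± 0.38). With IL-4 and IL-13 *Azin2* (2.26 ± 0.20) and *Gatm* (1.26 ± 0.14) rose, and *Slc7a7* (-1.07 ± 0.16) and the spermine oxidase *Smox* (-1.03 ± 0.12) fell. The edgeR adjusted p of these 8 changes was at most 0.00124. *Gatm* and *Slc7a7* thus moved in opposite directions under the 2 stimuli.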

How the data were processed

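The authors trimmed the paired-end reads of stranded mRNA libraries with Trimmomatic 0.36, aligned them to GRCm39 with HISAT2 2.2.1.0, and deposited StringTie gene counts without normalization. The annotation release, strand setting and treatment of multiply mapping reads are not given in the sources used here. The deposited counts were analysed in edgeR 4.0.16 (limma 3.58.1, R 4.3.3): filterByExpr, TMM (factors 0.818 to 1.20), 1 coefficient per group over all 18 libraries, quasi-likelihood test, Benjamini-Hochberg adjustment over 12021 genes. Differences of the knockout effect between states were called at adjusted p under 0.05, with no fold change minimum. Standard errors are the log2 fold change divided by the square root of F. The test was tested on simulated data. Replicates differed by more than sampling noise in every group (chi-square per degree of freedom 9.50 to 114).

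Groups and replicate numbers came from the sample labels. The study describes biological replicates, and nothing used here ties a number to an animal or day. Numbers were taken to pair libraries where all 3 correlations of deviations from the group means exceeded 0.1. This held for the knockout in M2 (0.249, 0.255 and 0.462) and for M1 against M0 in *Prep*-/- cells (0.201, 0.169 and 0.259). Only libraries of the same number were correlated, so the rule cannot establish that numbers mark pairs.

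The members, the pathway and marker lists and the tests were chosen with earlier results of these data known. All 10 members are named, and from the pathway lists up to 2 called genes with the largest rise and 2 with the largest fall in each comparison, with no overlap between groups and a sufficient level (1 gene so chosen is not reported here). Positions and canonical transcripts are those of GENCODE vM39, which may not be the authors' annotation and held 15667 of the 16314 symbols. Near copies were searched with blastn 2.17.0, and figures drawn with matplotlib 3.10.9. Alternatives were DESeq2 1.42.0 (the study's tool), DESeq2-type size factors, other filters, the compared libraries alone, a replicate block, adjusted p without a fold change minimum, glmTreat against a fold change of 1.5, and each library left out in turn. Use of raw counts in the ratio of *Nos2* to *Arg1* was added after the data were seen. Columns of fold changes or p-values by the authors were not used.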

Additional observations from a re-analysis of the deposited data

Results flagged for a closer look

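For 6 differences of the knockout effect between states, the test of the difference itself passed (edgeR adjusted p under 0.05). Relative to M0, the knockout effect in M1 was lower by a log2 value of -2.22 for *Arg2* (adjusted p = 0.0260) and -0.87 for *Slc7a2* (0.0183), and higher by 1.01 for *Sms* (0.00987), where 24.6% of all genes tested passed. The *Arg2* value for M2 relative to M0 was close to that for M1, at -2.24 (edgeR adjusted p = 0.05004), and passed under 10 of 19 alternatives. Relative to M0, the effect in M2 was higher by 1.63 for *Slc7a2* (0.00105), 2.01 for *Srm* (0.0307) and 1.28 for *Sms* (0.00670), where 9.64% of all genes passed. Both differences of *Sms* and that of *Slc7a2* in M2 passed under all 19 alternatives. The *Arg2* difference was lost on leaving out any of 5 libraries, namely *Prep*+/- M0 replicate 2 or 3, *Prep*+/- M1 replicate 2, *Prep*-/- M0 replicate 1 and *Prep*-/- M1 replicate 3 (-1.79 to -2.17), and was -2.88 without *Prep*+/- M0 replicate 1.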

How the results depend on the processing

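Of 1705 values of single genes under the alternatives, 1576 kept their direction and call, 72 lost the call, 28 gained it and 29 changed sign, none of them a called value. The knockout in M1 called 3 members under glmTreat. The knockout in M2 called 1 under glmTreat or in a fit of the compared libraries alone, 4 with DESeq2, and 2 to 6 on leaving out 1 library, with 6 without *Prep*-/- M2 replicate 3. M1 against M0 in *Prep*-/- cells called 5 under glmTreat and 5 to 8 on leaving out 1 library, with 5 without *Prep*-/- M1 replicate 2. The difference between M1 and M0 called 1 to 3, with 1 without *Prep*-/- M0 replicate 1. A replicate block gave 4 in the knockout in M2, in the fit of all libraries and of the compared libraries alone. It moved no other count of members by over 1.5 times, and 8 were called in M1 against M0 in *Prep*-/- cells with it. Elsewhere the libraries share only a number. The cause of these shifts was not tested.

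The sign changes were of small or poorly measured values. With DESeq2-type size factors and with DESeq2, *Sms* in the knockout in M2 was 0.0028 and 0.0027, and *Asl* in M1 against M0 in *Prep*-/- cells was -0.016 under both, -0.036 with the compared libraries alone and -0.026 with a replicate block in them. That block also took *Ass1* in the difference between M2 and M0 to -0.011. On leaving out 1 library, *Asl* spanned -0.0087 to 0.093 for the knockout in M1, -0.15 to 0.064 for M1 and -0.0094 to 0.20 for M2 against M0 in *Prep*-/- cells, and -0.17 to 0.041 for the difference between M2 and M0. *Nos2* spanned -0.80 to 2.61 for the knockout in M2, -0.42 to 2.15 for M2 against M0 in *Prep*-/- cells, and -0.087 to 1.77 and -2.52 to 0.90 for the differences of M1 and of M2 from M0. *Ass1* spanned -0.049 to 0.22 and -0.29 to 0.40 for those differences, *Sms* -0.28 to 0.15 for the knockout in M2, and *Sat1* -0.43 to 0.080 for the difference between M2 and M0. No M0 or M2 library held more than 27 *Nos2* reads, and the replicates of a group differed widely there.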
